A study of Homo sapiens with 16 samples.

Results

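The Snail, Zeb and Twist transcription factors and 3 corepressors were followed by RNA-seq in 6 lines of SW480, an established human colon adenocarcinoma line, in which the LIM protein Ajuba had been knocked down or overexpressed. The 10 genes were chosen by symbol, as the rows of the count table that the GENCODE annotation names SNAI1, SNAI2, SNAI3, ZEB1, ZEB2, TWIST1, TWIST2, PRMT5, KDM1A and RCOR1, out of 66023 genes in all. The rule names the genes and uses no measured value, but the genes were chosen with earlier results of these data known. Among them ZEB1 was higher in both KD lines than in shScrambled and lower in Ajuba OE than in Control, PRMT5 was higher in shAjuba1 than in shScrambled but not than in Parental, and ZEB2 and TWIST1 were at or near 0 in all 16 samples.

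The 6 lines were unmodified SW480 cells, called Parental (n = 2), cells carrying a non-mammalian control shRNA, called shScrambled (n = 2), and 2 KD lines named for their shRNA. The shRNA of shAjuba1 (n = 3) targets the coding region of Ajuba and that of shAjuba2 (n = 3) a non-coding region. Ajuba OE (n = 3) carries a lentiviral Ajuba construct with a CMV promoter and FLAG and HA tags, and Control (n = 3) carries the same construct after the Ajuba sequence was cut out. The 5 transduced lines were selected with puromycin, which Parental cells were not given, and each condition is represented by 1 line. The study calls the replicates technical replicates, so p-values measure the spread between these samples and not between separately made lines.

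Ajuba, encoded by AJUBA, shuttles between cell junctions and the nucleus, where it is known as a bridge between the SNAI1 protein and the arginine methyltransferase PRMT5. SNAI1, SNAI2, ZEB1 and ZEB2 bind E-box sequences in promoters of epithelial genes such as CDH1, which encodes E-cadherin, and lower their transcription during epithelial-mesenchymal transition (EMT). The lysine demethylase KDM1A and its partner RCOR1 form the CoREST complex that SNAI1 also recruits. TWIST1 and TWIST2 are basic helix-loop-helix factors that act in the same programme. In many carcinomas ZEB1 and the miR-200 family repress each other.

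The AJUBA level was 90.2 ± 2.00 RPM (SD, n = 2) in Parental, 82.5 ± 1.26 RPM (SD, n = 2) in shScrambled, 50.1 ± 3.12 RPM (SD, n = 3) in shAjuba1 and 62.0 ± 5.93 RPM (SD, n = 3) in shAjuba2. It was 93.2 ± 6.34 RPM (SD, n = 3) in Control and 525.9 ± 56.1 RPM (SD, n = 3) in Ajuba OE, where the construct and the gene itself were not separated. RPM is the count of a gene per 1000000 counted read pairs of its sample, and 30132396 to 69684675 read pairs were counted per sample. The libraries had the keratins of an epithelial line, with KRT8 at 1490 to 3160 RPM and KRT18 at 1150 to 2850 RPM. Of the colon markers CDX1 reached at most 0.0837 RPM. The defining markers of leukocytes (PTPRC, at most 0.0645 RPM), endothelium (CDH5, at most 0.0291 RPM) and fibroblasts (DCN, at most 0.0209 RPM) were at or near 0. The 11 colon epithelium markers summed to 6093 to 6608 RPM in Parental, 4066 to 4206 RPM in shScrambled, 4997 to 5206 RPM in shAjuba1, 2902 to 5495 RPM in shAjuba2, 4851 to 5968 RPM in Control and 5755 to 7008 RPM in Ajuba OE. The part of this difference in the results below was not tested. AJUBA fell in shAjuba1 against shScrambled by 0.73 on the log2 scale (edgeR adjusted p = 2.19e-05) and rose in Ajuba OE against Control by 2.56 (adjusted p = 7.69e-05). In shAjuba2 AJUBA was at -0.46 and did not pass (standard error 0.131, adjusted p = 0.0773), lower in 3 of 3 samples. It is called a KD line as in the study, which reported less Ajuba mRNA by RT-qPCR and less protein by immunoblot. Without replicate 2 of shAjuba2 AJUBA passed (-0.55, adjusted p = 0.000481).

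The sequences that bear on ZEB1, the member with the clearest differences, are its promoter and the microRNAs of the miR-200 family. ZEB1 (ENSG00000148516) lies on chromosome 10 of GRCh38 from 31318495 to 31529814 on the plus strand. The RefSeq promoter table for GRCh38.p14 held windows for 6 of the 10 genes, 12 windows in all, each of 250 bases before and 50 bases after a start site. The sequence searched was the E-box CAGGTG, on both strands, so also as CACCTG. Of the 12 windows 2 held at least 1 E-box, beside 20.6% of all 35116 windows in the table, so the 12 held no excess. Both were among the 7 windows of ZEB1. The window at the start of the MANE Select transcript of ZEB1, at position 31319216, held 3 E-boxes, and 0.635% of all windows held 3 or more. The first 250 bases of that window, at chr10:31318966-31319215 on the plus strand, are shown because they hold 2 of these 3 E-boxes, in capitals.
ZEB1 promoter: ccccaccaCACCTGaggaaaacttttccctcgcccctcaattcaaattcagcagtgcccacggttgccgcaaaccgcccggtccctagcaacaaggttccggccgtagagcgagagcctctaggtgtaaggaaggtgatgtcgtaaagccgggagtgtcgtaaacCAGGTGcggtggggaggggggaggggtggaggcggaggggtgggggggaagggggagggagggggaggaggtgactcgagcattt
The E-boxes began at positions -242 and -85 from the start site, and the third at position 33 after it. A match of letters is a description of the window and not a bound site.

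MIR200CHG, the long non-coding host gene of miR-200c and miR-141 on chromosome 12, has 1 window in the table. It held 1 E-box, at position -78 from its start. Its first 250 bases at chr12:6962995-6963244 on the plus strand are shown with the E-box in capitals, for comparison with ZEB1.
MIR200CHG promoter: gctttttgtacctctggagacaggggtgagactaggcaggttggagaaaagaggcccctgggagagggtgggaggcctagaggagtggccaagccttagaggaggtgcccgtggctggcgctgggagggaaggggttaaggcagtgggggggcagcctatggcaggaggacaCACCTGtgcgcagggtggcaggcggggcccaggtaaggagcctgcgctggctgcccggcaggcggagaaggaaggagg
MIR200CHG and the other RNAs with no protein that are named here were added after their values were seen.

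The 5 members of the miR-200 family fall into 2 groups by their seed, bases 2 to 8, which is given in capitals. The seed decides which transcripts a microRNA can pair with, and the family is shown because both seeds have matches in ZEB1.
miR-200b-3p: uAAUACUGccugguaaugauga
miR-200c-3p: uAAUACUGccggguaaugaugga
miR-429: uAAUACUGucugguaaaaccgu
miR-141-3p: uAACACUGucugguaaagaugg
miR-200a-3p: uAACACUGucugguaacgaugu
The first 3 share the seed AAUACUG and the last 2 the seed AACACUG. The 3' untranslated region of ZEB1, 2540 bases long in the MANE Select transcript, held 6 matches to the first seed (CAGTATT) and 3 to the second (CAGTGTT). The region of ZEB2, 5370 bases long, held 5 and 4. Of 18780 such regions, with a median length of 1089 bases, 16.4% held at least 1 CAGTATT and 18.5% at least 1 CAGTGTT, and 0.0106% held 6 or more CAGTATT. The first match of each kind and the last CAGTATT of ZEB1 are shown with the match in capitals.
chr10:31527619-31527640: ttgttttatcttatCAGTATTa
chr10:31528032-31528053: aaaatcatcagaatCAGTGTTt
chr10:31529214-31529235: cttttcatcattatCAGTATTt
Mature microRNAs are too short for these libraries and were not measured.

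Across the 16 samples the 10 genes spanned a wide range of levels. Between genes, levels were compared per length, as RPKM over the length of the MANE Select transcript. The corepressors led, with a median of 31.8 RPKM for PRMT5, 28.2 RPKM for KDM1A and 11.8 RPKM for RCOR1. ZEB1 followed at 3.38 RPKM and SNAI1 at 1.43 RPKM. SNAI2 at 0.53 RPKM, SNAI3 at 0.444 RPKM and TWIST2 at 0.375 RPKM had the lowest medians of the 8 genes detected throughout. For scale, AJUBA had a median of 20.7 RPKM, CDH1 3.53 RPKM and VIM, the mesenchymal filament vimentin, 102.9 RPKM.

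ZEB2 and TWIST1 were not detectable as expressed at this depth. ZEB2 (chromosome 2, 144364364 to 144521057, minus strand) had 3 counts in all, 1 each in 3 samples, and 0 in 13 samples. TWIST1 (chromosome 7, 19020991 to 19117636, minus strand) had 2 counts, both in replicate 2 of shScrambled, and 0 in the other 15 samples. A count of 0 allows a level of up to 3 counts, which is 0.0431 RPM in the deepest and 0.0996 RPM in the shallowest sample, by counting error alone. No fold change is given for either gene, and neither passed the filter on low counts, so 8 of the 10 genes were tested.

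**Figure D1:**
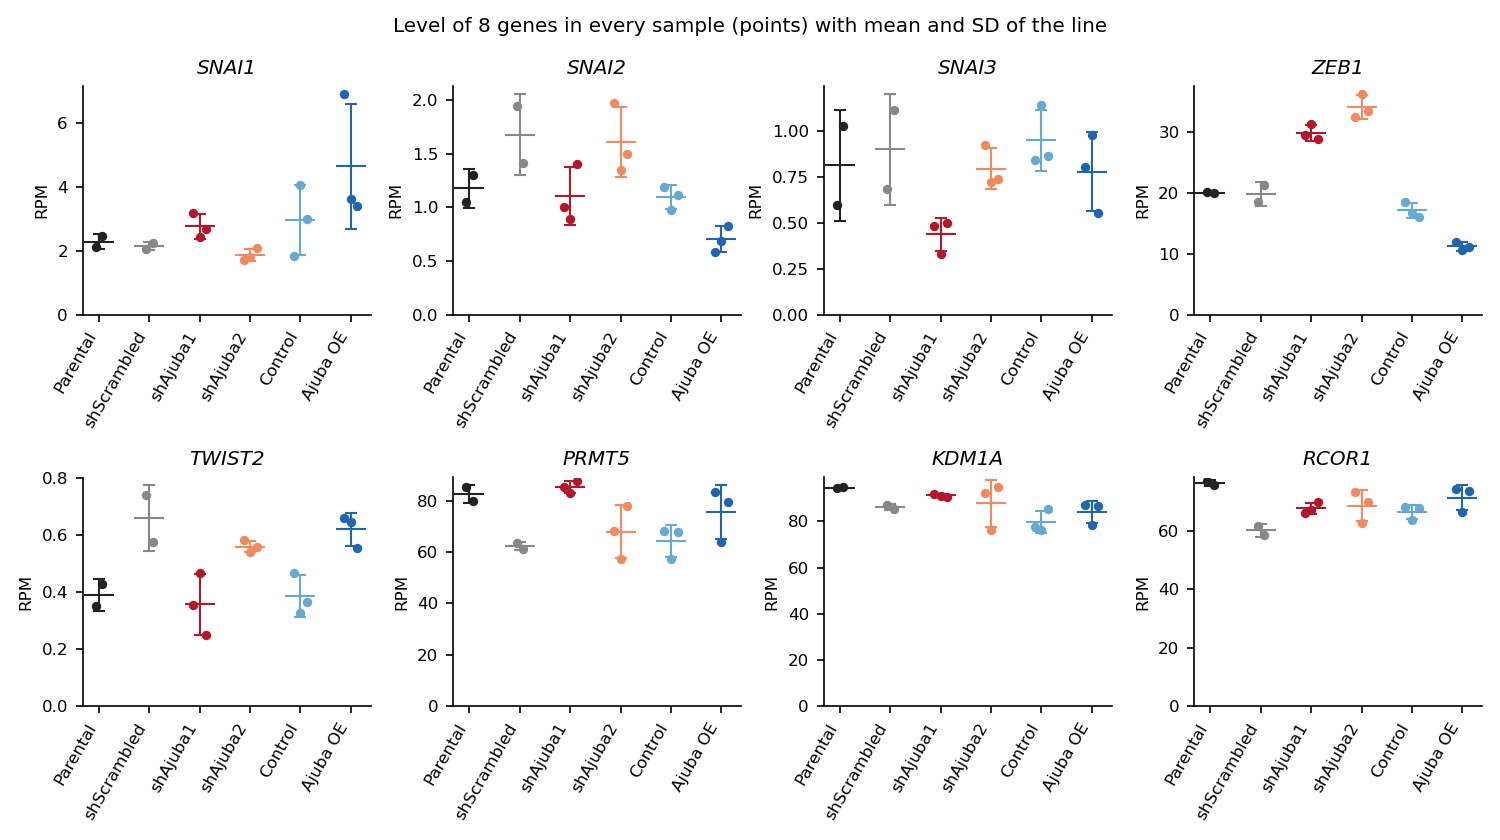
Level of the 8 tested genes in RPM (vertical axes, from 0) in the 6 lines. Points are samples, the long horizontal mark is the mean and the bar the SD of the line (n = 2 or 3). ZEB1 lies between 28.8 and 36.3 RPM in the 6 KD samples, between 16.1 and 21.3 RPM in the 7 samples of Parental, shScrambled and Control, and between 10.6 and 12.0 RPM in Ajuba OE.

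The 6 lines differed in 6 of the 8 tested genes by edgeR's quasi-likelihood F test over all 16 samples, with p-values adjusted after Benjamini and Hochberg and 0.05 as the threshold for every call. Of all 23597 genes tested 45.7% passed. ZEB1 had the smallest adjusted p of the 8 genes (1.19e-07). SNAI1 (adjusted p = 0.00575), SNAI2 (adjusted p = 0.00697), PRMT5 (adjusted p = 0.0134), TWIST2 (adjusted p = 0.0188) and RCOR1 (adjusted p = 0.0213) passed as well. SNAI3 (adjusted p = 0.0703) and KDM1A (adjusted p = 0.19) did not. The highest line mean was 3.04 times the lowest for ZEB1, 2.49 times for SNAI1, 2.39 times for SNAI2, 2.18 times for SNAI3 and 1.85 times for TWIST2. For the corepressors this ratio was 1.37 for PRMT5, 1.27 for RCOR1 and 1.18 for KDM1A. TWIST2 did not pass with DESeq2's likelihood ratio test (adjusted p = 0.0567), and RCOR1 did not with library size alone (adjusted p = 0.11). When every gene with a count was tested, SNAI3 passed (adjusted p = 0.0337) and TWIST2 (adjusted p = 0.0586) and RCOR1 (adjusted p = 0.294) did not.

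Of the Zeb genes, ZEB1 alone was expressed. The ZEB1 level was 20.07 and 20.04 RPM in the Parental samples and 18.5 and 21.3 RPM in the shScrambled samples. It was 29.6, 31.4 and 28.8 RPM in shAjuba1 and 32.5, 36.3 and 33.5 RPM in shAjuba2. In Control it was 18.6, 16.7 and 16.1 RPM, and in Ajuba OE 12.0, 10.6 and 11.1 RPM. All 6 KD samples were above all 4 samples of Parental and shScrambled, and all 3 Ajuba OE samples were below every other sample. By mean the order was shAjuba2, shAjuba1, Parental, shScrambled, Control and Ajuba OE, and the sample ranges of Parental and shScrambled and of shScrambled and Control overlapped.

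ZEB1 rose in shAjuba1 against shScrambled by 0.57 on the log2 scale (standard error 0.101, edgeR adjusted p = 0.000698), higher in 3 of 3 samples. In that comparison 38.4% of all 21082 genes tested passed the threshold. Over the 12 alternative settings and left-out samples the change in ZEB1 lay between 0.50 and 0.67 and passed in all 12. In shAjuba2 against shScrambled, where 7.63% of genes passed, ZEB1 rose by 0.73 (standard error 0.136, edgeR adjusted p = 0.021). Without replicate 2 of shAjuba2 it was at 0.67 (adjusted p = 0.000386). The call was lost without replicate 1 of shAjuba2 (0.79, adjusted p = 0.0712) and without either shScrambled sample (0.64, adjusted p = 0.281, and 0.83, adjusted p = 0.172, with edgeR). Both KD comparisons share the 2 shScrambled samples, so they are not independent of each other. Against Parental in place of shScrambled the change in ZEB1 was 0.55 in shAjuba1 (adjusted p = 0.000783) and 0.71 in shAjuba2 (adjusted p = 0.0235).

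In Ajuba OE against Control, a pair of lines that shares no sample with the KD comparisons, 5.43% of genes passed. ZEB1 fell by 0.54 on the log2 scale (standard error 0.104, edgeR adjusted p = 0.0255), lower in 3 of 3 samples. The value stayed between -0.58 and -0.48 with each sample left out in turn, but the call was lost in each of these 6 fits, with adjusted p between 0.0581 and 0.128. With replicate 2 of both lines left out, ZEB1 was at -0.53 (adjusted p = 0.0272), and with DESeq2 at -0.50 (adjusted p = 0.0122). ZEB1 did not pass between shAjuba1 and shAjuba2 (-0.14, standard error 0.11, adjusted p = 0.393), although the 3 shAjuba1 samples were below the 3 shAjuba2 samples.

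**Figure D2:**
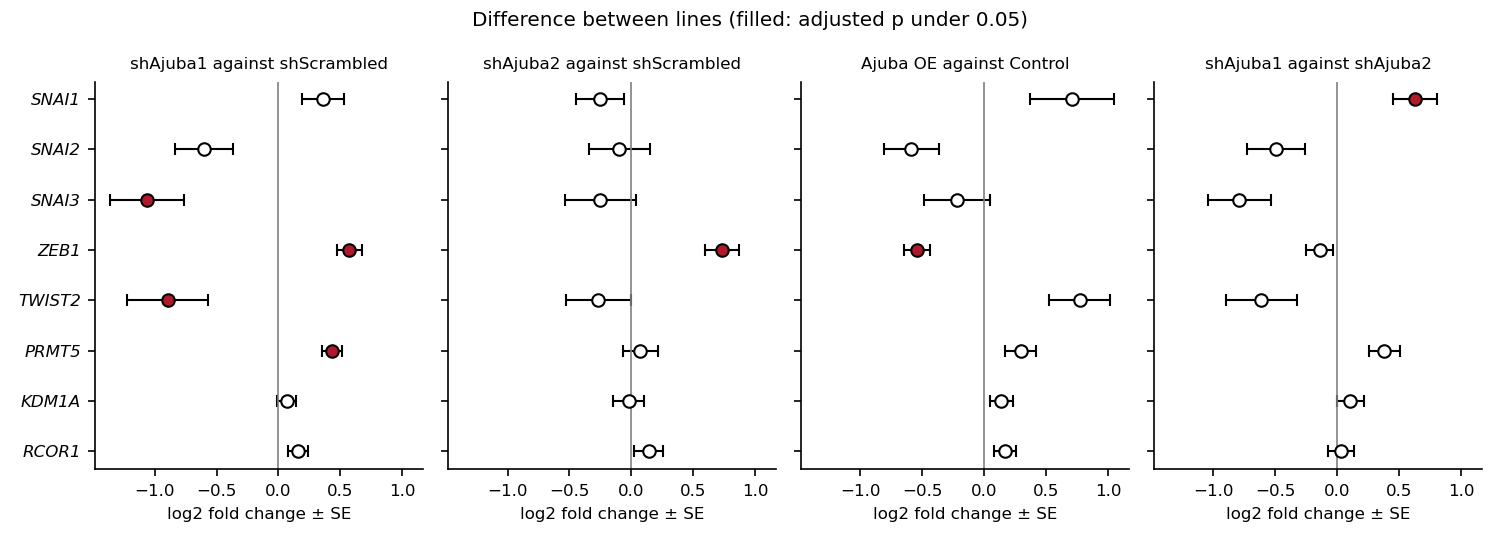
Log2 fold change (horizontal axes) of the 8 tested genes in 4 comparisons, with the standard error as the bar and a filled point where the adjusted p-value is under 0.05. ZEB1 is filled to the right in both KD lines (0.57 and 0.73) and to the left in Ajuba OE (-0.54), and SNAI1 is filled between the KD lines (0.62).

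ZEB1-AS1 is transcribed from the opposite strand at the ZEB1 start and shares 396 exonic bases with it. The option for strand in the counting is not given in the sources used here. It is therefore not known to which gene, if any, reads of these bases were assigned. ZEB1-AS1 rose in shAjuba1 by 0.60 on the log2 scale (standard error 0.122, adjusted p = 0.00191). It did not pass in shAjuba2 (0.24, adjusted p = 0.369) or in Ajuba OE (-0.13, adjusted p = 0.684). Its level was 3.81 to 6.76 RPM over all samples, below the lowest ZEB1 level of 10.6 RPM.

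SNAI1, whose protein Ajuba is known to bind, did not pass in any of the 3 comparisons of a KD or OE line with its control. SNAI1 (ENSG00000124216, chromosome 20, 49982980 to 49988886, plus strand) was at 2.12 and 2.44 RPM in Parental, 2.06 and 2.23 RPM in shScrambled, and 3.18, 2.42 and 2.68 RPM in shAjuba1. In shAjuba2 it was at 1.70, 1.80 and 2.08 RPM. In Control it was at 1.83, 4.04 and 2.98 RPM and in Ajuba OE at 6.89, 3.63 and 3.39 RPM. The Control and Ajuba OE ranges overlapped, replicate 1 of Ajuba OE being the highest sample of all. Against shScrambled SNAI1 differed by 0.36 on the log2 scale in shAjuba1 (standard error 0.171, adjusted p = 0.114) and by -0.25 in shAjuba2 (standard error 0.193, adjusted p = 0.45). It was 0.71 in Ajuba OE against Control (standard error 0.341, adjusted p = 0.329). SNAI1 moved there to 0.33 without replicate 1 of Ajuba OE (adjusted p = 0.736) and to 1.14 with replicate 2 of both lines left out (adjusted p = 0.0655), and did not pass in either.

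Between the KD lines SNAI1 was higher in shAjuba1 than in shAjuba2, by 0.62 on the log2 scale (standard error 0.179, edgeR adjusted p = 0.0357), and the sample ranges did not overlap. It was the only one of the 8 genes to pass there, where 19.6% of all genes did. The call was lost in 4 of the 6 fits without 1 sample (0.51 without replicate 1, 0.70 without replicate 2 and 0.66 without replicate 3 of shAjuba1, and 0.55 without replicate 1 of shAjuba2). The adjusted p was then between 0.0657 and 0.177. With edgeR on all 16 samples the adjusted p for SNAI1 was 0.135.

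SNAI2 (ENSG00000019549, chromosome 8, 48917598 to 48921740, minus strand), also called Slug, was at 1.05 and 1.31 RPM in Parental and 1.95 and 1.41 RPM in shScrambled. It was at 1.005, 0.896 and 1.41 RPM in shAjuba1, 1.98, 1.35 and 1.50 RPM in shAjuba2, 1.19, 0.979 and 1.12 RPM in Control and 0.588, 0.688 and 0.83 RPM in Ajuba OE. The 3 Ajuba OE samples were below the other 13. The SNAI2 difference was -0.59 on the log2 scale in Ajuba OE against Control (standard error 0.222, adjusted p = 0.207) and -0.60 between shAjuba1 and shScrambled (standard error 0.232, adjusted p = 0.0579). Neither passed, although the ranges did not overlap. SNAI2 passed in 4 of 12 alternatives of the shAjuba1 comparison. Among these it was at -0.59 (adjusted p = 0.0369) when every gene with a count was tested. Without replicate 3 of shAjuba1 it was at -0.78 (adjusted p = 0.00313). The value was -0.84 without replicate 2 of shScrambled and -0.35 without replicate 1. With Parental as control SNAI2 was at -0.13 in shAjuba1 (edgeR adjusted p = 0.677), so the difference depends on the control line.

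SNAI3 (ENSG00000185669, chromosome 16, 88677688 to 88686507, minus strand), the least studied Snail gene, was at 0.598 and 1.03 RPM in Parental, 0.686 and 1.11 RPM in shScrambled, and 0.481, 0.332 and 0.497 RPM in shAjuba1. It was between 0.553 and 1.14 RPM in the other 9 samples. The 3 shAjuba1 samples were the lowest of all 16. SNAI3 fell in shAjuba1 against shScrambled by 1.06 on the log2 scale (standard error 0.298, edgeR adjusted p = 0.0135), from counts of 25 and 56 to counts of 10 to 23. Without replicate 2 of shScrambled the difference was -0.65 (adjusted p = 0.266), and with DESeq2 -1.04 (adjusted p = 0.0961), so the call rests on few reads. SNAI3 shares 177 exonic bases with SNAI3-AS1 on the other strand, which was at -0.13 (adjusted p = 0.498) in that comparison. In shAjuba2 (-0.25, adjusted p = 0.618) and Ajuba OE (-0.22, adjusted p = 0.731) SNAI3 did not pass.

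TWIST2 (ENSG00000233608, chromosome 2, 238848032 to 238910534, plus strand) had the lowest counts of the tested genes, 9 to 46 per sample. It was at 0.349 and 0.429 RPM in Parental, 0.741 and 0.576 RPM in shScrambled, 0.356, 0.465 and 0.248 RPM in shAjuba1 and 0.58, 0.541 and 0.556 RPM in shAjuba2. In Control it was at 0.466, 0.326 and 0.364 RPM and in Ajuba OE at 0.66, 0.646 and 0.553 RPM. The shAjuba1 samples were below both shScrambled samples, and the Ajuba OE samples above the 3 Control samples. TWIST2 fell in shAjuba1 by 0.90 on the log2 scale (standard error 0.328, edgeR adjusted p = 0.0468). The call was lost in 7 of 12 alternatives, among them DESeq2 (-0.89, adjusted p = 0.233), Parental as control (-0.19, adjusted p = 0.704), and the fits without replicate 1 or 3 of shAjuba1 or either shScrambled sample (-1.09 to -0.70, adjusted p 0.0895 to 0.261). In Ajuba OE against Control TWIST2 was at 0.77 (standard error 0.247, adjusted p = 0.14) and did not pass.

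Among the corepressors PRMT5 differed most between lines. PRMT5 (ENSG00000100462) lies on chromosome 14 from 22920525 to 22929408 on the minus strand. Its level was 85.2 and 80.1 RPM in Parental, 63.6 and 61.3 RPM in shScrambled, 85.4, 83.0 and 87.5 RPM in shAjuba1 and 68.3, 57.4 and 78.1 RPM in shAjuba2. In Control it was 68.1, 57.3 and 68.0 RPM and in Ajuba OE 83.5, 63.8 and 79.6 RPM. The shAjuba1 samples were above both shScrambled samples and 2 of them above both Parental samples. PRMT5 rose in shAjuba1 against shScrambled by 0.43 on the log2 scale (standard error 0.0804, edgeR adjusted p = 0.000986). Against Parental in its place the difference was 0.02 (adjusted p = 0.874), so the call depends on the control line. PRMT5 did not pass in shAjuba2 (0.07, adjusted p = 0.787) or in Ajuba OE (0.29, standard error 0.124, adjusted p = 0.264). It was at 0.31 (adjusted p = 0.0712) in Ajuba OE with replicate 2 of both lines left out. With the replicate number added to the edgeR fit PRMT5 passed in Ajuba OE (0.29, adjusted p = 0.00327), although the number was not taken as a pairing. In that fit 5140 of all genes passed, in place of 1147.

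KDM1A (ENSG00000004487, chromosome 1, 23019443 to 23083689, plus strand) was at 76.3 to 94.8 RPM, had the smallest ratio of line means of the 8 genes, and passed in none of the 6 comparisons of lines. RCOR1 (ENSG00000089902, chromosome 14, 102592649 to 102730561, plus strand) was at 58.7 to 77.1 RPM. Its 2 Parental samples, at 77.1 and 75.7 RPM, were the highest of all, and its 2 shScrambled samples, at 61.9 and 58.7 RPM, the lowest. In the 3 comparisons of a KD or OE line with its control the log2 fold change was 0.07, -0.02 and 0.14 for KDM1A (adjusted p = 0.532, 0.93 and 0.493) and 0.15, 0.14 and 0.17 for RCOR1 (adjusted p = 0.157, 0.485 and 0.377). For PRMT5, KDM1A and RCOR1 alike, replicate 2 was the lowest sample of its line in shAjuba2, Control and Ajuba OE. PRMT5 shares 924 exonic bases with PRMT5-AS1 on the other strand, which was at 0.588 to 1.85 RPM.

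The control lines themselves were compared with Parental cells, since each member's difference depends on its control. In shScrambled against Parental, where 30.7% of genes passed, PRMT5 fell by 0.41 on the log2 scale (standard error 0.0768, edgeR adjusted p = 0.000272) and RCOR1 fell by 0.35 (standard error 0.0765, adjusted p = 0.00132). ZEB1 was at -0.01 (adjusted p = 0.928) and SNAI1 at -0.10 (adjusted p = 0.734). CDH1 fell by 1.52 (standard error 0.109, adjusted p = 2.56e-10). In Control against Parental, where 0.37% of genes passed, 0 of the 8 genes passed with edgeR or with DESeq2, and 1 gene, PRMT5, had an unadjusted p under 0.05 (-0.35, adjusted p = 0.195). ZEB1 was at -0.22 there (adjusted p = 0.33).

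CDH1, the E-cadherin gene that Snail and Zeb proteins are known to repress, was at 21.2 and 24.7 RPM in Parental and 7.87 and 8.23 RPM in shScrambled. It was at 12.4, 13.5 and 14.8 RPM in shAjuba1 and 7.07, 3.92 and 4.65 RPM in shAjuba2. In Control it was at 21.5, 19.2 and 19.6 RPM and in Ajuba OE at 35.0, 27.2 and 36.2 RPM. CDH1 rose in shAjuba1 against shScrambled by 0.73 on the log2 scale (standard error 0.113, edgeR adjusted p = 0.000253), the same comparison in which ZEB1 rose, and against Parental in its place it fell by 0.79 (adjusted p = 0.000218). In shAjuba2 it was at -0.68 (adjusted p = 0.121), and it passed lower in 5 of 12 alternatives. Among these CDH1 was at -0.67 with edgeR on all 16 samples (adjusted p = 0.025), at -2.20 with Parental as control (adjusted p = 0.00646) and at -0.52 without replicate 2 of shAjuba2 (adjusted p = 0.0397). Between the KD lines it was higher in shAjuba1 by 1.43 (adjusted p = 0.00124). CDH1 rose in Ajuba OE against Control by 0.77 (standard error 0.125, adjusted p = 0.0132). This last call was lost without replicate 1 or 3 of Ajuba OE or replicate 3 of Control, at 0.70 to 0.75 (adjusted p 0.0598 to 0.0897). It was also lost with Parental in place of Control, at 0.56 (adjusted p = 0.0804).

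VIM was at 213.1 to 224.9 RPM in Parental and shScrambled, 264.9 to 308.2 RPM in shAjuba1 and 226.1 to 362.6 RPM in shAjuba2. It was at 187.6 to 225.5 RPM in Control and 161.0 to 177.1 RPM in Ajuba OE. VIM rose in shAjuba1 by 0.43 on the log2 scale (standard error 0.0865, edgeR adjusted p = 0.0018). It was at 0.36 in shAjuba2 (adjusted p = 0.29) and at -0.20 in Ajuba OE (adjusted p = 0.359), which did not pass. Without replicate 2 of shAjuba2 VIM passed in that line (0.49, adjusted p = 0.0109). WTIP, a LIM protein of the Ajuba family, rose by 0.91 in shAjuba1 (adjusted p = 0.000364), was at 0.55 in shAjuba2 (adjusted p = 0.0582) and fell by 0.71 in Ajuba OE (adjusted p = 0.0475). LIMD1, the third member of that family, did not pass in the 3 comparisons (0.18, 0.24 and 0.11, adjusted p = 0.123, 0.312 and 0.708).

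MIR200CHG was at 5.29 and 5.67 RPM in Parental, 6.01 and 5.76 RPM in shScrambled, 2.55, 2.99 and 3.67 RPM in shAjuba1 and 5.85, 4.91 and 4.07 RPM in shAjuba2. In Control it was at 8.71, 13.3 and 9.29 RPM and in Ajuba OE at 7.23, 12.9 and 8.17 RPM. MIR200CHG fell in shAjuba1 against shScrambled by 0.96 on the log2 scale (standard error 0.154, edgeR adjusted p = 0.000349), where ZEB1 rose. It did not pass in shAjuba2 (-0.30, adjusted p = 0.347) or in Ajuba OE (-0.08, adjusted p = 0.911), the latter with overlapping ranges. MIR205HG, the host gene of miR-205, another microRNA known to act on ZEB1, rose in shAjuba1 by 1.82 (adjusted p = 7.30e-05). It fell in Ajuba OE (adjusted p = 0.00462), where it had 3 to 5 counts per sample against 14 to 33 in Control.

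**Figure D3:**
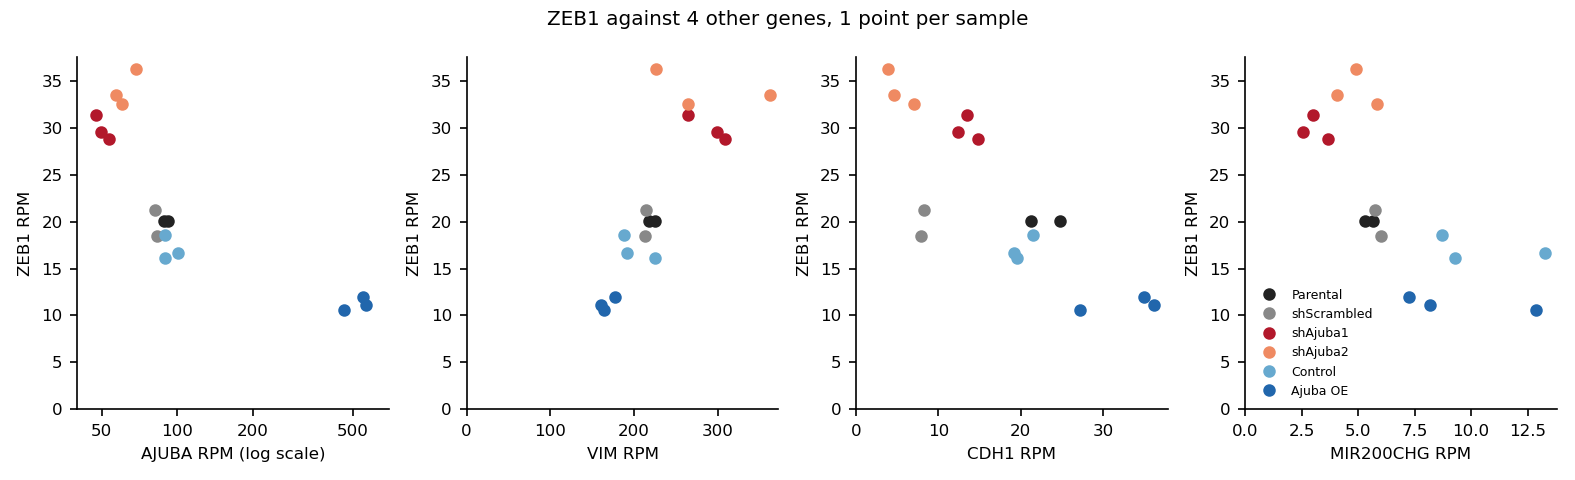
ZEB1 in RPM (vertical axes, from 0) against AJUBA, VIM, CDH1 and MIR200CHG in RPM (horizontal axes, AJUBA on a log scale), with 1 point per sample coloured by line. The Ajuba OE samples lie lowest on ZEB1 and rightmost on AJUBA (461.8 to 566.2 RPM) and CDH1, and the shAjuba1 samples have more CDH1 than the shScrambled samples at a higher ZEB1 level.

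Over the means of the 6 lines (n = 6, all derived from SW480), log2 levels of ZEB1 and AJUBA had a Pearson r of -0.88 and a Spearman rho of -0.89. ZEB1 had r = 0.97 with VIM (rho 0.94), -0.78 with CDH1 (rho -0.71) and -0.85 with MIR200CHG (rho -0.89). SNAI1 had r = 0.84 with AJUBA (rho 0.66) and 0.83 with CDH1 (rho 0.83). SNAI2 had r = -0.75 with AJUBA (rho -0.37) and -0.87 with CDH1 (rho -0.71). PRMT5 and KDM1A had r = 0.20 and 0.06 with AJUBA (rho -0.26 and -0.14). Mean AJUBA was 525.9 RPM in Ajuba OE and 50.1 to 93.2 RPM in the other lines, so Ajuba OE weighs heavily in r with AJUBA. These values describe 6 points and were not tested.

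The protein-coding genes whose log2 level followed each member most closely were taken over the 16 samples from 14957 genes. For ZEB1 they were PLCB4 (r = 0.973), a phospholipase C, MALT1 (r = 0.97), a paracaspase, and SYDE1 (r = 0.967). For PRMT5 they were ABCF2 (r = 0.974), NUDC (r = 0.97) and TSR2 (r = 0.969), for KDM1A TECR (r = 0.936), WDR83OS (r = 0.922) and ISOC2 (r = 0.921), and for RCOR1 TNPO3 (r = 0.941), CSTF2T (r = 0.935) and SLC7A5 (r = 0.931). The values were lower for SNAI1, with S100P (r = 0.887), MFSD2A (r = 0.865) and LRG1 (r = 0.86), for SNAI2, with SERPINB9 (r = 0.903), ANK1 and BST2 (r = 0.894 each), and for SNAI3, with RGS3 (r = 0.903), GALNT12 (r = 0.893) and MAN2B2 (r = 0.857). TWIST2 had the lowest, with MEGF10 (r = 0.833), ZNF215 (r = 0.828) and CBLB (r = 0.826). Samples of a line share its level, so these coefficients reflect 6 lines as much as 16 samples.

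The other genes of the pathway were counted in 7 lists chosen by known role, with earlier results of these data known. The share of a list beside that of all genes is therefore a description, and enrichment was not tested. In shAjuba1 against shScrambled 4 of the 8 members passed, beside 38.4% of all genes tested, 2 higher and 2 lower, and the 8 had a median of 0.11 on the log2 scale, beside a median of -0.01 over all genes tested. Of 18 other EMT factors and epithelial antagonists tested, 12 passed, 3 higher and 9 lower (median -0.21), beside the same 38.4%. They included ESRP1, an epithelial splicing factor (-1.91, adjusted p = 3.89e-08), TCF4 (-1.84, adjusted p = 0.0041), PRRX1 (-1.55, adjusted p = 0.000738) and GRHL2, which opposes ZEB1 in epithelia (-1.04, adjusted p = 0.0318). ESRP1 fell from 27.6 to 7.41 RPM, whereas the other 3 were at 0.133 to 1.03 RPM. With DESeq2 GRHL2 was at -1.03 and did not pass (adjusted p = 0.218).

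In shAjuba2 against shScrambled 1 of the 8 members passed, beside 7.63% of all genes tested (median -0.06 over the 8, beside -0.01 over all genes). Of 18 other EMT factors 4 passed, beside the same 7.63%. SOX4 (1.28, adjusted p = 0.00272) and TCF3, which encodes E12 and E47 (0.73, adjusted p = 0.0139), were higher. ESRP1 (-1.04, adjusted p = 0.00638) and ELF3 (-0.69, adjusted p = 0.0452) were lower. With Parental as control TCF3 was at 0.39 in shAjuba2 (edgeR adjusted p = 0.0768). In Ajuba OE against Control 1 of the 8 members passed, beside 5.43% of all genes tested (median 0.15, beside -0.01 over all genes). Of 14 other EMT factors 2 passed, beside the same 5.43%. SOX4 fell by 1.15 (adjusted p = 0.00129) from 108.2 to 46.8 RPM and ESRP1 rose by 0.57 (adjusted p = 0.0368) from 40.7 to 58.0 RPM.

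Of the 18 partners of the CoREST and PRMT5 complexes 7 passed in shAjuba1, beside 38.4% of all genes, 2 higher and 5 lower. GFI1, a repressor that recruits KDM1A, fell by 1.64 (adjusted p = 1.37e-06), KDM1B by 0.60 (adjusted p = 0.000438) and PHF21A by 0.58 (adjusted p = 0.000399), and RIOK1, an adaptor of PRMT5, rose by 0.41 (adjusted p = 0.00595). With Parental as control RIOK1 was at 0.21 (adjusted p = 0.11). In shAjuba2 WDR77, the obligate partner of PRMT5, alone passed (-0.55, adjusted p = 0.0363), beside 7.63% of all genes. In Ajuba OE 0 of 18 passed with edgeR, beside 5.43% of all genes. There 3 had an unadjusted p under 0.05, and 1 passed with DESeq2.

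Of the 32 other cofactors and regulators of SNAI1, which change its stability or its place in the cell, 14 passed in shAjuba1, beside 38.4% of all genes, 7 in each direction. PAK1, a kinase that phosphorylates SNAI1, fell by 1.32 (adjusted p = 3.27e-06), USP27X, a deubiquitinase of SNAI1, rose by 0.76 (adjusted p = 0.00145), and LATS1 (-0.49, adjusted p = 0.00117) and YWHAZ (-0.48, adjusted p = 0.00262) fell. With Parental as control USP27X was at 0.18 (adjusted p = 0.345). In shAjuba2 PAK1 (-1.38, adjusted p = 0.0189) and LOXL2 (-0.49, adjusted p = 0.0469) fell. Against Parental in that line PAK1 was at -0.83 (adjusted p = 0.106) and LOXL2 at -0.01 (adjusted p = 0.974). In Ajuba OE SFN rose (0.75, adjusted p = 0.0435) and LOXL2 (-0.45, adjusted p = 0.0372) and LATS2 (-0.44, adjusted p = 0.033) fell.

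Of the epithelial genes known as targets of Snail and Zeb proteins, 22 of 31 tested passed in shAjuba1, 7 higher and 15 lower (median -0.24), beside 38.4% of all genes, 3839 higher and 4264 lower. JUP, plakoglobin, fell by 1.22 (adjusted p = 2.11e-06) and CLDN1, a claudin, by 1.11 (adjusted p = 5.68e-06), while CDH1 rose. In shAjuba2 4 of 32 passed, beside 7.63% of all genes, among them HNF4A (-0.49, adjusted p = 0.0409) and ESRP1 lower and TMC6 (0.97, adjusted p = 0.0297) higher. With Parental as control HNF4A was at -0.12 in shAjuba2 (edgeR adjusted p = 0.477). In Ajuba OE 6 of 32 passed, beside 5.43% of all genes, 5 of them higher (median 0.21). CLDN7 rose by 0.89 (adjusted p = 0.0254) and ST14, matriptase, by 0.67 (adjusted p = 0.00915), and CGN, cingulin, fell by 0.78 (adjusted p = 0.037). In bulk samples fewer cells with a gene and less RNA of it per cell cannot be told apart.

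The mesenchymal genes did not move in 1 direction. In shAjuba1 18 of 24 passed, beside 38.4% of all genes, 5 higher and 13 lower (median -0.29), with MMP9 (3.38, adjusted p = 4.10e-07), CDH11 (2.32, adjusted p = 1.10e-08) and COL6A1 (1.78, adjusted p = 3.37e-07) higher and MMP2 (-2.60, adjusted p = 4.24e-06) lower. In shAjuba2 7 of 25 passed, beside 7.63% of all genes, 2 higher and 5 lower. CDH11 (1.80, adjusted p = 0.00105) and COL5A1 (1.48, adjusted p = 0.02) were higher and TNC (-1.94, adjusted p = 0.000921) lower. With Parental as control TNC was at -0.47 in shAjuba2 (edgeR adjusted p = 0.0961). In Ajuba OE 10 of 24 passed, beside 5.43% of all genes, 4 higher and 6 lower. PDGFRB (-3.25, adjusted p = 0.000203) and CDH11 (-3.16, adjusted p = 4.26e-05) were lower. MMP9 (1.97, adjusted p = 0.0115) and TNC (1.84, adjusted p = 0.000233) were higher. CDH11, a cadherin of mesenchymal cells, was at 36.3 RPM in Control and 3.89 RPM in Ajuba OE.

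TGF-beta is a known inducer of SNAI1, ZEB1 and TWIST1. Of 15 genes of its pathway tested, 9 passed in shAjuba1, beside 38.4% of all genes, 4 higher and 5 lower. SMAD6 rose by 1.15 (adjusted p = 0.000139) and SMAD3 by 0.92 (adjusted p = 5.19e-06), and TGFB3 fell by 0.84 (adjusted p = 0.000393) and INHBA by 0.81 (adjusted p = 0.00448). With Parental as control TGFB3 was at -0.24 (adjusted p = 0.208) and INHBA at -0.33 (adjusted p = 0.21). In shAjuba2 SKI passed (0.63, adjusted p = 0.0304). In Ajuba OE TGFB2 fell by 1.34 (adjusted p = 0.00182) and TGFBR3 by 0.94 (adjusted p = 0.00319).

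**Figure D4:**
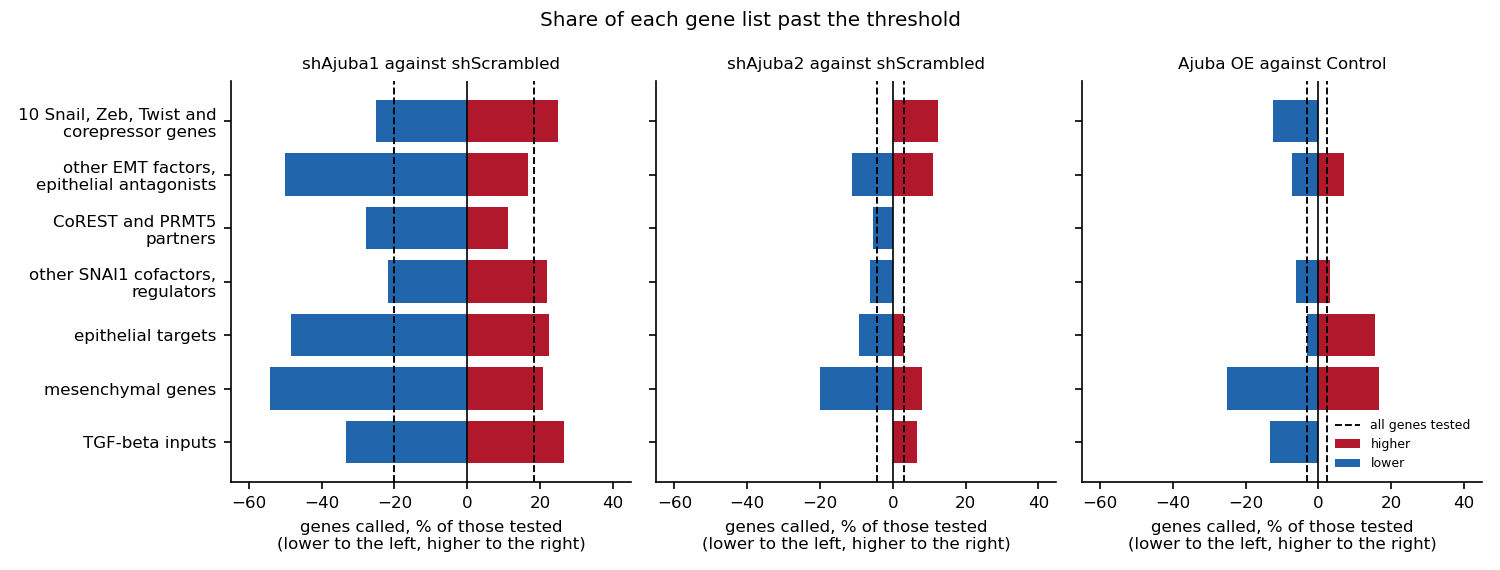
Genes past the threshold as a percent of those tested in each list (horizontal axes, higher to the right in red, lower to the left in blue) in the 3 comparisons of a KD or OE line with its control. The dashed lines give the same shares over all genes tested, of which 38.4%, 7.63% and 5.43% passed in all.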

How the data were processed

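RNA of 16 samples of 6 SW480 lines was sequenced as paired-end, stranded mRNA libraries. The authors aligned the reads to GRCh38 with HISAT2 and deposited raw counts of read pairs over the exons of each gene from featureCounts, with no normalization. The strand option and the versions are not given in the sources used here. Gene names and lengths come from GENCODE, and sequences from RefSeq tables for GRCh38.p14 and the reference genome.

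Each pair of lines was tested on its own samples with edgeR 4.0.16 (quasi-likelihood F test, two-sided, TMM, filterByExpr) in R 4.3.3, with Benjamini-Hochberg adjustment over all genes tested and a threshold of 0.05. The study used DESeq2, which was run here as an alternative (version 1.42.0). Standard errors belong to the log2 fold change. RPM used the column total, RPKM the MANE Select length, and correlations used log2 CPM with a prior count of 2. The procedure was tested on simulated data.

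All 10 members are named, with CDH1, VIM, AJUBA, LIMD1 and WTIP. From each list up to 4 genes with the largest change among those past the threshold are named in each of the 3 study comparisons, and 3 genes per member for likeness; some of these list genes are not reported here. The members and lists were chosen with earlier results of these data known. Alternatives changed the scaling, the filter, the tool, the samples in the fit, the replicate block and the control line, and left out each sample in turn. Leaving out replicate 2 of both Ajuba OE and Control was chosen after seeing the data. Total counts per sample were 30132396 to 69684675.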

Additional observations from a re-analysis of the deposited data

Results flagged for a closer look

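The KD lines were compared with each other directly, since both are set against the same shScrambled samples. Each gene below passed edgeR's test of shAjuba1 against shAjuba2 (adjusted p under 0.05), so its difference from the shared control was not the same in the 2 lines, and a positive log2 value means higher in shAjuba1. Of all genes tested 19.6% passed.

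SNAI1 was at 0.62, its target CDH1 at 1.43 and MIR200CHG at -0.64. Of the EMT factors and antagonists, PRRX1 was at -1.52, TCF4 at -2.41, SOX4 at -1, ESRP1 at -0.85 and ELF3 at 0.91. Among corepressor partners GFI1 was at -1.51, WDR77 at 0.61 and RIOK1 at 0.49, and the kinase LATS1 was at -0.38. Of the epithelial genes CLDN1 was at -0.88 and JUP at -0.91.

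Of the mesenchymal genes MMP9 was at 3.47, TNC at 2.61, COL6A1 at 1.16 and CDH11 at 0.53, and MMP2 was at -1.44, COL5A1 at -1.04 and PDGFRB at -0.63. In the TGF-beta pathway SMAD6 was at 1.15, SMAD3 at 1.04 and TGFBR3 at 0.64, and INHBA was at -1.35, TGFB3 at -0.91, TGFB2 at -0.55 and SKI at -0.40. ZEB1 did not pass in this test (-0.14, adjusted p = 0.393).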

How the results depend on the processing

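Of the 8 tested members, 4 passed in shAjuba1 against shScrambled, 2 with DESeq2 and 2 with Parental as control, and 3 to 4 without 1 sample. In shAjuba2 against shScrambled 1 passed, and 0 to 1 without 1 sample. In Ajuba OE against Control 1 passed, 2 with edgeR on all 16 samples and 2 with the replicate block, and 0 in each of the 6 fits without 1 sample. LOXL2 and LATS2 also lost their calls in each of these 6 fits (edgeR adjusted p 0.0718 to 0.173). WTIP lost its call in all of them except that without replicate 1 of Control (adjusted p 0.0805 to 0.201). CLDN7, CGN, SFN and ESRP1 lost theirs in all except that without replicate 2 of Ajuba OE (adjusted p 0.0526 to 0.173). In shAjuba2 against shScrambled TCF3, ELF3, WDR77, LOXL2, TMC6, HNF4A, COL5A1 and SKI lost theirs without replicate 1 of shAjuba2 (adjusted p 0.0584 to 0.141). The same genes also lost theirs when either shScrambled sample was left out. Between the KD lines 1 passed, 2 with library size alone, 0 with the replicate block and 0 to 2 without 1 sample. In shScrambled against Parental 2 passed, 1 with edgeR on all 16 samples and 2 in each fit without 1 sample. Across the 6 lines 6 passed, and 5 to 6 without 1 sample.

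Directions turned mostly for values near 0. With Parental as control in place of shScrambled, shAjuba1 gave KDM1A -0.08, RCOR1 -0.20 and CDH1 -0.79, of which CDH1 passed in both directions, and shAjuba2 gave SNAI2 0.38, TWIST2 0.45, PRMT5 -0.34 and RCOR1 -0.21. With Parental in place of Control, Ajuba OE gave PRMT5 -0.08, KDM1A -0.12 and RCOR1 -0.05. There CDH1, ESRP1, SFN, LATS2 and ST14 kept their direction but lost their calls (edgeR adjusted p 0.0522 to 0.196). With library size alone KDM1A was at 0.03 in shAjuba2 and RCOR1 at -0.02 between the KD lines. Without 1 sample, shAjuba2 against shScrambled gave SNAI2 -0.33 to 0.14, SNAI3 -0.53 to 0.16, PRMT5 -0.02 to 0.17 and KDM1A -0.06 to 0.06. Between the KD lines RCOR1 lay between -0.02 and 0.06 and VIM between -0.05 and 0.29. In shScrambled against Parental SNAI1 lay between -0.20 and 0.02, SNAI3 between -0.28 and 0.62 and ZEB1 between -0.12 and 0.06. In Control against Parental SNAI2 lay between -0.28 and 0.07, SNAI3 between -0.12 and 0.69, TWIST2 between -0.20 and 0.14 and AJUBA between -0.01 and 0.08. The causes were not tested.

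Samples with the same replicate number did not all deviate together (correlations of -0.17 to 0.62), so the number was not taken as a pairing. The value of 0.62 belongs to replicate 2 of Ajuba OE and Control. With the replicate block ZEB1 (-0.54, adjusted p = 0.000579) and PRMT5 (0.29, adjusted p = 0.00327) passed in Ajuba OE against Control. PRMT5 was at -0.04 with it in shAjuba2. In shAjuba1 TWIST2 lost its call with the block (-0.71, adjusted p = 0.104) and SNAI2 passed (-0.83, adjusted p = 0.00193). With it, over all genes 5377 in place of 1713 passed in shAjuba2, 5140 in place of 1147 in Ajuba OE and 318 in place of 80 in Control against Parental. With edgeR on all 16 samples these counts were 3672, 2386 and 530, and 1696 in place of 6526 passed in shScrambled against Parental. When every gene with a count was tested, 3210 passed in shAjuba2 and 1947 in Control against Parental, where DESeq2 called 470. SNAI3 and TWIST2 had 9 to 56 counts per sample, and ZEB1 442 to 1630.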
